A study of Mus musculus with 24 samples.

Results

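The genes described here code for the proteins that make cells contract, and for the factors that switch such genes on. The 38 genes were chosen by symbol, as a list of smooth muscle and myofibroblast genes (11 genes), thin filament genes of striated muscle (11 genes), thick filament genes (9 genes), genes of calcium handling, energy and cytoskeleton in muscle (4 genes) and myogenic transcription factors (3 genes), and all 38 were among the 27962 gene names on the arrays, with 77 probes. They were measured in immortalized mouse embryonic fibroblasts (MEFs) lacking Ku70 (Xrcc6), a protein of DNA end joining. Every group, the untreated controls included, carried this Ku70-/- genotype, so no comparison below has cells with Ku70, and all values belong to 1 cell line in culture. KBrO3 (potassium bromate) oxidizes DNA and other cell constituents, and BPA (bisphenol A) is a plastics monomer with hormone-like activity.

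The 24 arrays formed 2 sets, each with its own untreated control, and every group had 3 arrays. In the first set, cells received 20 mM KBrO3 for 1 hr and then recovered for 3 or 23 hr, which gives the 4 hr and 24 hr groups, and in the co-exposure groups 150 µM BPA was present from 1 hr before KBrO3 until harvest. In the second set, cells received 150 µM BPA alone for 4 or 24 hr according to the sample labels, while the study's methods state an hour more. The controls of the first set are labeled as 4 hr and those of the second set carry no time, so the 24 hr groups were set against controls that may have been harvested earlier, and an effect of time in culture and an effect of treatment cannot be told apart there. Replicates are described as biological in the methods. Levels are log2 signals relative to the 75th percentile of the same array, so 0 is the level that 75% of spots stay below, and they can be compared between arrays for a gene but not between genes. Tests were two-sided in limma, and a call needed both a fold change beyond 1.5 and a p below 0.05 after Benjamini-Hochberg adjustment, with p-values adjusted over all probes of the set.

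Contraction rests on myosin motors of the thick filament pulling on actin in the thin filament. In striated muscle the troponins and tropomyosin open the thin filament when calcium rises, whereas in smooth muscle and in myofibroblasts calcium acts mainly through myosin light chain kinase. Fibroblasts in culture carry stress fibers with smooth muscle α-actin, calponin and transgelin, and many of these genes are driven by serum response factor with its actin-sensing partners, the myocardin-related factors. Skeletal muscle identity is set by the myogenic factors, of which Myod1, Myog and Myf6 are members here, and such genes are not a usual feature of fibroblasts.

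Between 57.7% and 68.1% of probes were well above background on the arrays of the first set and between 76.4% and 79.4% on those of the second set. The median spread between replicates on the log2 scale was 0.11 for the first set but 0.32 for the second, so the second set could show only larger changes. In the first set the groups lay mostly on different slides. KBrO3 at 4 hr shared a slide with 1 control array and the 24 hr groups shared a slide with each other. Replicate 1 of KBrO3 at 24 hr shared a slide with the co-exposure arrays at 4 hr. Slide and treatment cannot be told apart when the 24 hr groups or co-exposure at 4 hr are set against control. Nor can they when co-exposure is set against KBrO3 at 4 hr, or KBrO3 at 24 hr against 4 hr. Co-exposure at 24 hr is linked to 4 hr by slide only through that 1 KBrO3 array. The main fits took arrays as independent, although the correlation within slides was 0.634 in this set. SEs and p-values of comparisons between slides may thus be too small. The cells carried fibroblast genes at high levels, with 9 of 10 fibroblast markers, among them Col1a1, Col1a2, Vim and Dcn, well above background on all 24 arrays. Pecam1 of endothelium and Ptprc of blood cells were above background on none, but Tek of endothelium, Cd68 of macrophages, Cspg4 and Mcam of pericytes and Fabp4 and Pparg of fat cells were above background on all 24. Kdr of endothelium was above it on 23 arrays, Csf1r of macrophages on 19 and Krt18 of epithelium on 20.

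Of the 38 genes, 20 were well above background on every array and 3 (Des, Myh3, Myl1) on none. Des codes for desmin, the intermediate filament of muscle, and its level was between −7.61 and −6.57 on the arrays of the first set and between −8.38 and −7.34 on those of the second. In the first set 31 genes could be tested and in the second 33. Casq2, Des, Myh3 and Myl1 were tested in neither set, Ckm, Neb and Nebl in the second only, and Tnnt2 in the first only. A gene was tested in a set where all 3 arrays of some group were above background. In the first set 7 of the 31 (Myh1, Myh7, Myod1, Myog, Tnni1, Tnnt2 and Tnnt3) entered only through treated groups, so that a rise of these genes is partly fixed by the filter, and counts without them are given too. Of markers of myogenic cells, Myf5 was above background on none of the 24 arrays, Pax7 on 15 and Cdh15 on all 24. RNA was taken from whole cultures, so fewer cells of a kind and less RNA per cell cannot be told apart in any value below.

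The 4 muscle actins of the list all fell at 24 hr and their proteins are nearly alike, so coding-sequence probes of Acta1, Acta2 and Actc1 are shown, because a probe that cross-hybridized would report a sum of actins. The probe sequences are those of the array files, with mouse build mm7 positions: chr8:122479438-122479497 for Acta1, chr19:33949738-33952992 for Acta2 and chr2:113789115-113790038 for Actc1, those of Acta2 and Actc1 spanning an intron. Each is 60 bases long, and cross-hybridization to the matching stretch of another actin was not tested. On these probes the log2 change at 24 hr was −1.24, −0.80 and −1.92 after KBrO3 and −2.85, −1.31 and −3.51 after co-exposure, in the order shown. The Acta2 probe shown is not its brightest, which gives the levels below.
Acta1 probe: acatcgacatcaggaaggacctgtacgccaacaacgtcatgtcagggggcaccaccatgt
Acta2 probe: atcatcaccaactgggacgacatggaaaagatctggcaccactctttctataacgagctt
Actc1 probe: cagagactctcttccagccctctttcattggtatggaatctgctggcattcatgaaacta

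At 24 hr after KBrO3, 7 of the 11 genes of the smooth muscle and myofibroblast group fell, and after co-exposure 9 did. Of the 31 genes tested, 14 were lower and 2 higher than control after KBrO3 at 24 hr, beside 33.2% of all genes called in either direction, 20.7% lower and 12.5% higher. After co-exposure 19 were lower and 2 higher, beside 39.6% of all genes called, 25.1% lower and 14.6% higher. Of the 24 genes whose controls were all above background, 13 were lower and 1 higher after KBrO3, and 18 and 1 after co-exposure. The median change of the 31 genes was −0.55 after KBrO3 and −0.86 after co-exposure, against −0.07 and −0.11 over all genes tested.

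Acta2 codes for smooth muscle α-actin, the usual marker of myofibroblasts. Its level was 4.60, 4.55 and 4.65 on the control arrays, 2.34, 2.41 and 2.47 after KBrO3 at 24 hr, and 0.22, 0.22 and 0.03 after co-exposure at 24 hr. The 3 groups did not overlap, with the co-exposure arrays lowest. Acta2 was 4.58-fold lower than control after KBrO3 (log2 change −2.19, SE 0.06, adjusted p = 1.85e-11, limma) and 21.8-fold lower after co-exposure (−4.44, SE 0.06, adjusted p = 3.85e-14, limma). All 4 of its tested probes were lower in both comparisons, by −0.80 to −2.19 after KBrO3 and by −1.31 to −4.62 after co-exposure, so the direction held for every probe and the size did not.

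Cnn1 codes for calponin, which binds actin and restrains myosin. Its level was 4.68, 4.71 and 4.62 in controls, 2.48, 2.47 and 2.56 after KBrO3 at 24 hr and 0.83, 0.85 and 0.61 after co-exposure. Again the 3 groups stood apart, with a 4.48-fold fall after KBrO3 (adjusted p = 2.38e-11) and a 15.0-fold fall after co-exposure (adjusted p = 1.07e-13, limma). Tagln, which codes for transgelin, an actin-bundling protein of stress fibers, stood at 4.01, 4.04 and 3.68 in controls, 1.97, 1.88 and 1.88 after KBrO3 and 1.19, 1.10 and 1.43 after co-exposure. Tagln was 4.00-fold and 6.37-fold lower than control (adjusted p = 3.70e-09 and 1.75e-10, limma), and its other probe fell by 2.31 and 3.84 on the log2 scale.

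Myl9 codes for the regulatory light chain of smooth muscle and nonmuscle myosin. Its level was 6.11, 6.13 and 6.14 in controls, 3.86, 3.93 and 3.99 after KBrO3 and 2.33, 2.31 and 2.17 after co-exposure at 24 hr. The fall was 4.59-fold and 14.5-fold (adjusted p = 6.75e-12 and 3.85e-14, limma), with the groups apart. Mylk codes for the kinase that phosphorylates this light chain. Its level was 1.51, 1.60 and 1.59 in controls, −0.37, −0.28 and −0.30 after KBrO3 and −0.27, −0.36 and −0.43 after co-exposure. Mylk was lower than control in both (3.69-fold and 3.79-fold, adjusted p = 1.11e-11 and 4.69e-12), and the treated groups overlapped each other.

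Lmod1 codes for leiomodin, which starts actin filaments in smooth muscle. Its level was 0.35, 0.35 and 0.37 in controls, −1.34, −1.40 and −1.43 after KBrO3 at 24 hr and −2.80, −2.88 and −2.73 after co-exposure. It fell by 1.75 and by 3.16 on the log2 scale (adjusted p = 2.02e-11 and 8.56e-14, limma). Actg2, the actin of visceral smooth muscle, fell by 0.78 after KBrO3 and by 1.26 after co-exposure (adjusted p = 3.52e-06 and 3.42e-08). For Acta2, Cnn1, Tagln, Myl9, Mylk and Lmod1, both falls against control kept their direction and call in all 28 alternative settings run.

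The tropomyosins lie along the actin filament and are widely expressed in fibroblasts. Tpm1 was at 5.15, 5.06 and 5.18 in controls, 4.99, 5.10 and 5.17 after KBrO3 at 24 hr and 4.58, 4.54 and 4.39 after co-exposure. Tpm2 was at 4.96, 4.87 and 4.99, at 4.36, 4.38 and 4.42, and at 4.27, 4.22 and 4.11 in the same groups. For Tpm1 the KBrO3 arrays overlapped the controls and only the co-exposure arrays lay below, while for Tpm2 both treated groups lay below the controls. After co-exposure both passed the test (log2 change −0.63 and −0.74, adjusted p = 1.01e-06 and 6.81e-08, limma), close to the fold limit, and both calls were lost when arrays were scaled to their median and under normexp (−0.30 and −0.40). The call of Tpm1 was also lost without replicate 3 of co-exposure at 24 hr, where its change was −0.57. After KBrO3 alone the changes were −0.05 and −0.55, and neither was called, although the other probe of Tpm2 passed at −0.63.

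Of the 11 genes of this group, 7 fell and 1 rose after KBrO3 at 24 hr, and 9 fell and 1 rose after co-exposure, with median changes of −1.75 and −1.92, beside 20.7% of all genes lower and 12.5% higher after KBrO3 and 25.1% and 14.6% after co-exposure. Smtn, which codes for smoothelin of smooth muscle, was not called in either (0.27 and −0.34). Myh11, the heavy chain of smooth muscle myosin, was the exception that was higher. Its level was dim, at −4.48, −5.15 and −4.28 in controls, −3.80, −3.42 and −4.20 after KBrO3 and −3.96, −3.73 and −4.04 after co-exposure, with the treated arrays above the controls by a small gap. Myh11 was higher by 0.83 and 0.72 (adjusted p = 0.012 and 0.0227, limma), but under normexp background correction its sign turned, to −1.06 and −1.03. Without control replicate 2 the change was 0.57 after KBrO3 and 0.47 after co-exposure and the call was lost, as it also was without replicate 2 of the treated group (0.64 and 0.63).

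Fibroblast markers moved with these falls. Of 10 such genes, 9 were lower after KBrO3 at 24 hr and 9 after co-exposure at 24 hr, with median changes of −1.49 and −1.89, beside 20.7% and 25.1% of all genes lower. Their summed level on the linear scale, relative to the 75th percentile, was 1360 to 1455 in controls, 496 to 547 after KBrO3 and 382 to 433 after co-exposure. At 4 hr it was 1238 to 1297 after KBrO3 and 1061 to 1092 after co-exposure. Of 4 pericyte markers 2 were tested, and both were lower after co-exposure at 24 hr (median −0.92), with a summed level over the 4 of 5.89 to 6.79 against 11.2 to 11.6 in controls. Of 4 fat cell markers 2 were tested, and 1 was lower in each treated group at 24 hr, with summed levels of 16.1 to 16.9 after KBrO3 and 13.0 to 14.1 after co-exposure against 44.0 to 49.9. Of 4 macrophage markers 2 were tested, Cd68 and Csf1r. Both were higher at 4 hr in each treated group and 1 at 24 hr, beside 21.3% and 29% of all genes higher at 4 hr. Csf1r entered the test only through the 4 hr groups, so its rise there is partly fixed by the filter. The summed level of the 4 was 0.626 to 0.672 after KBrO3 at 4 hr against 0.148 to 0.191 in controls. The part of these markers in the changes of the contractile genes was not tested.

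**Figure D1:**
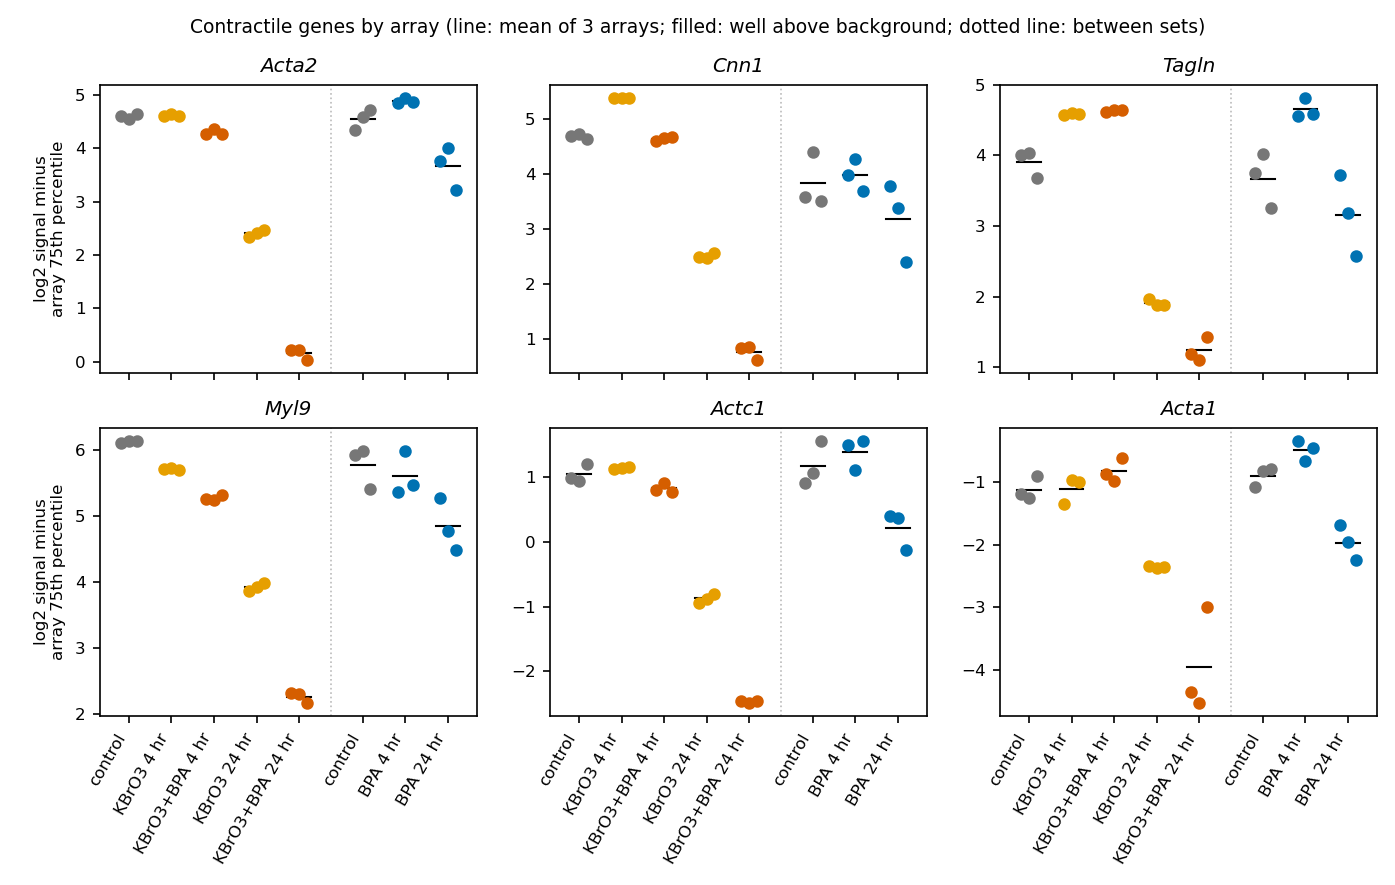
Level of 6 contractile genes on each of the 24 arrays (vertical axis, log2 signal minus the array's 75th percentile) by group (horizontal axis), with points for arrays and a line for the mean of 3 arrays. In all 6 panels the co-exposure arrays at 24 hr are lowest in the first set, with Acta2 between 0.03 and 0.22 against 4.55 to 4.65 in controls.

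The comparison of co-exposure with KBrO3 alone at 24 hr asks what BPA adds. Here 12 of the 31 genes were lower and 0 higher in limma (0 higher at an unadjusted p under 0.05), beside 14.2% of all genes called, 8.45% lower and 5.76% higher, and the median change was −0.57 against −0.03 over all genes. Of the 24 genes with controls above background 11 were lower. Acta2 fell by 2.25 on the log2 scale (4.75-fold, adjusted p = 1.71e-10), Cnn1 by 1.74, Myl9 by 1.66, Lmod1 by 1.41 and Tagln by 0.67 (adjusted p = 9.63e-10, 4.68e-10, 8.00e-10 and 0.000124, limma). The call of Tagln was lost when arrays were scaled to their median (change of −0.50). Of the smooth muscle group 6 of 11 were lower, the last being Smtn (−0.61, adjusted p = 1.00e-04). Mylk differed by −0.04 with a 95% interval of −0.14 to 0.06, so a fall of the size seen in Acta2 lies outside it. Of markers of other cells, 2 of 2 tested of pericytes (median −0.84), 2 of 2 of epithelium (−1.21), 1 of 2 of endothelium and 3 of 10 of fibroblasts were lower here as well, and 1 of 2 of macrophages was higher. Krt8 of epithelium entered the test only through co-exposure at 4 hr. It stood at −4.43, −6.23 and −6.75 after KBrO3 and at −7.58, −7.37 and −7.46 after co-exposure. Krt18, the other, stood at −4.09, −4.22 and −4.13 and at −4.83, −4.82 and −5.03. The part of these markers was not tested. On the slide that held 2 arrays of each of these groups the difference was −2.22 for Acta2 and −1.68 for Cnn1.

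**Figure D2:**
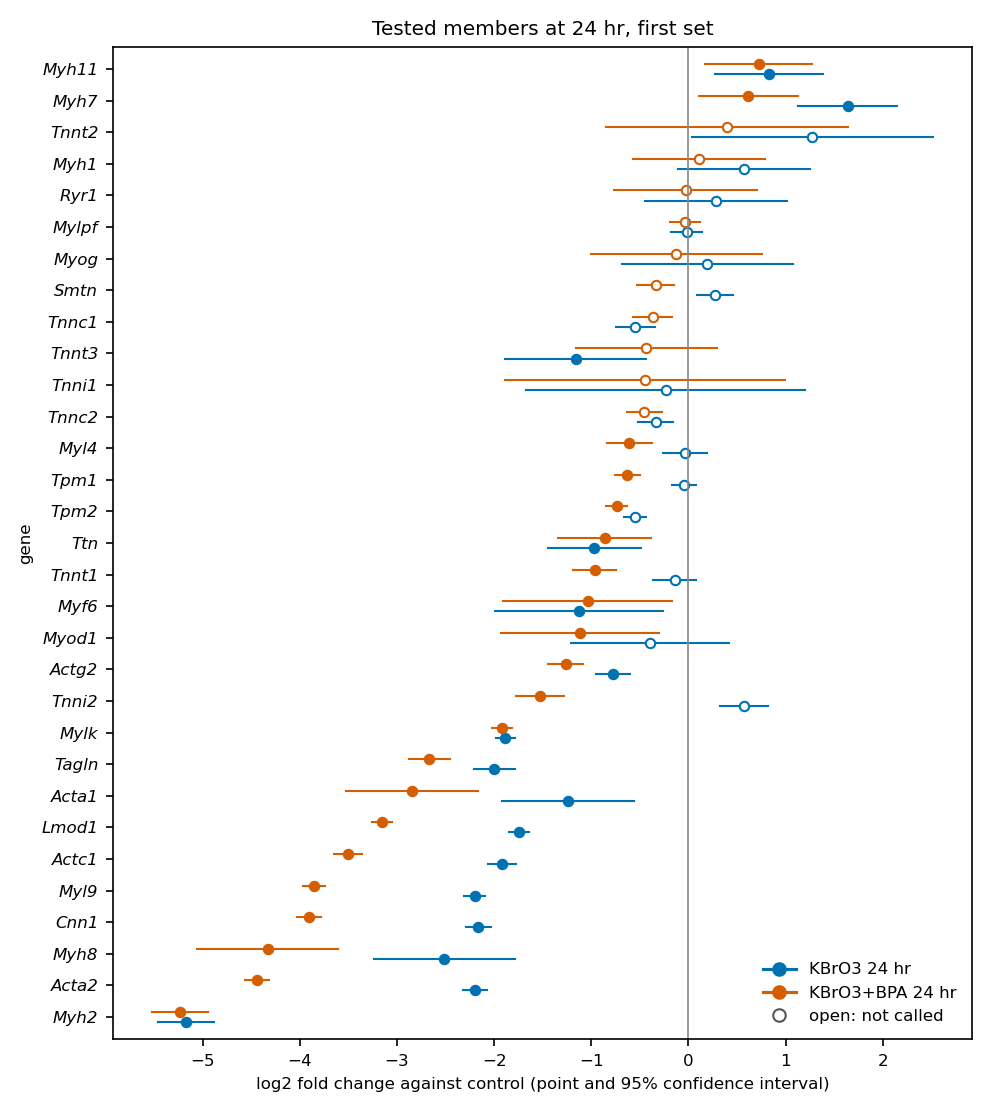
Log2 change against control at 24 hr (horizontal axis, point and 95% confidence interval) for the 31 tested genes (vertical axis), after KBrO3 alone in blue and after co-exposure in orange, with filled points for calls. Acta2, Cnn1, Myl9, Actc1 and Lmod1 lie between −3.16 and −4.44 after co-exposure and between −1.75 and −2.20 after KBrO3, and Mylk lies at −1.89 and −1.92. The rises of Myh7 and Myh11 turned their sign under normexp.

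At 4 hr Lmod1 and Mylk were already low, and Myl9 was lower after co-exposure. After KBrO3 at 4 hr, 9 of the 31 genes were higher and 4 lower, beside 44.3% of all genes called, 21.3% higher and 23% lower, and after co-exposure 10 were higher and 6 lower, beside 54.5%, 29% higher and 25.5% lower. Of the 24 genes with controls above background, 7 were higher and 4 lower, and 5 and 6. The medians were 0.36 and 0.08, with 0.05 over all genes in each. Lmod1 stood at −2.29, −2.34 and −2.32 after KBrO3 and at −2.51, −2.60 and −2.61 after co-exposure, all below the controls at 0.35 to 0.37. It was 6.38-fold and 7.61-fold lower (adjusted p = 2.84e-13 and 1.09e-13, limma). Mylk stood at 0.01, −0.02 and −0.01 and at −0.40, −0.39 and −0.36, below controls at 1.51 to 1.60, and was 2.98-fold and 3.87-fold lower (adjusted p = 1.86e-11 and 2.39e-12).

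Acta2 stood at 4.60, 4.65 and 4.60 after KBrO3 at 4 hr, within the control range, and at 4.27, 4.36 and 4.27 after co-exposure, below it by less than the fold limit (−0.30). Cnn1 stood at 5.37, 5.38 and 5.37 after KBrO3 and at 4.59, 4.65 and 4.67 after co-exposure. It was 1.63-fold higher than control after KBrO3 (adjusted p = 2.50e-07, limma), a call lost under quantile normalization (change of 0.38), and overlapped the controls after co-exposure. Tagln stood at 4.58, 4.60 and 4.59 and at 4.61, 4.65 and 4.64, above all controls in both, by 0.68 and 0.72 (adjusted p = 3.51e-05 and 1.96e-05). These small rises of Tagln were under the fold limit with quantile normalization (0.45 and 0.56), and without control replicate 3 the rise after KBrO3 was 0.57.

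Myl9 stood at 5.71, 5.73 and 5.70 after KBrO3 at 4 hr and at 5.26, 5.24 and 5.32 after co-exposure. Both groups lay below the controls, and the 1.80-fold difference after co-exposure passed the test (adjusted p = 7.90e-09, limma), a call lost under normexp (change of −0.50), while that after KBrO3 was under the fold limit (−0.41). Tpm1 stood at 5.65, 5.65 and 5.62 and at 5.45, 5.52 and 5.49, and Tpm2 at 4.88, 4.82 and 4.84 and at 4.56, 4.58 and 4.47. Neither was called at 4 hr, with changes of 0.51 and 0.35 for Tpm1 and of −0.09 and −0.40 for Tpm2. Myh11 was called higher in both, at −3.94, −4.31 and −3.64 after KBrO3 (0.67, adjusted p = 0.0311) and at −3.21, −3.05 and −3.50 after co-exposure (1.38, adjusted p = 0.000297). The KBrO3 arrays overlapped the controls, the call there was lost without control replicate 2 or without replicate 1 or 3 of KBrO3 (0.41 to 0.66), and normexp turned both signs, to −0.82 and −0.45.

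In co-exposure against KBrO3 alone at 4 hr, 3 of the 31 genes were higher and 3 lower, beside 21% of all genes called, 12.1% higher and 8.91% lower, and of the 24 genes with controls above background 1 was higher and 3 lower. Cnn1 fell by 0.74 (adjusted p = 1.23e-06, limma), and Tnni2 and Myf6 were lower too, as given below. Myh11 was higher by 0.71 (adjusted p = 0.0301), a call that was lost without replicate 1 or 2 of either group, with changes of 0.54 to 0.73. The total was 3 without replicate 1 of KBrO3 at 4 hr.

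Between 4 and 24 hr after KBrO3, 17 of the 31 genes fell and 2 rose, beside 48% of all genes called, 28.6% lower and 19.3% higher. After co-exposure 21 fell and 2 rose, beside 57.4%, 36% lower and 21.3% higher. Some of the 31 entered the test only through 4 hr groups, so their fall is partly fixed by the filter. Of the 24 genes with controls above background, 14 fell and 2 rose after KBrO3, and 16 fell and 2 rose after co-exposure. Acta2 fell by 2.21 after KBrO3 and by 4.15 after co-exposure (adjusted p = 9.71e-12 and 5.41e-14, limma), and Cnn1 by 2.87 and 3.88. Lmod1 went the other way after KBrO3, rising by 0.93 (adjusted p = 2.38e-09).

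With BPA alone the changes were fewer and the replicates more spread. At 4 hr 2 of 33 genes were lower and 0 higher in limma (3 higher at an unadjusted p under 0.05), beside 4.24% of all genes called, 1.47% lower and 2.77% higher, and at 24 hr 6 were lower and 0 higher (1 higher at an unadjusted p under 0.05), beside 3.65%, 2.15% lower and 1.5% higher. Lmod1 stood at 0.32, 0.81 and 0.72 in the controls of this set, at −1.50, −0.75 and −1.28 at 4 hr and at −1.10, −0.73 and −1.20 at 24 hr. It was below all controls in both groups, 3.46-fold lower at 4 hr and 3.08-fold lower at 24 hr (adjusted p = 0.00637 and 0.0121, limma). With the slide as a fixed block no gene of the list was called in either comparison, nor under normexp background correction. Within slides, the difference of Lmod1 was −1.71 at 4 hr (2 BPA arrays and 1 control) and −1.91 and −1.45 at 24 hr (1 array of each on 2 slides), from arrays that also gave the calls.

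Acta2 stood at 4.35, 4.59 and 4.71 in these controls, at 4.85, 4.95 and 4.87 after BPA at 4 hr and at 3.77, 4.01 and 3.22 at 24 hr. The 24 hr arrays lay below the controls and the 4 hr arrays above, but neither difference was called (0.34 and −0.89, adjusted p = 0.476 and 0.0748, limma). Another of its probes was called higher at 4 hr (1.64, adjusted p = 0.0115), so the probes gave different calls at 4 hr. Tagln stood at 3.75, 4.02 and 3.25 in controls, 4.56, 4.82 and 4.59 at 4 hr and 3.73, 3.18 and 2.58 at 24 hr. Its 4 hr arrays lay above the controls and its 24 hr arrays overlapped them, again without a call (0.98 and −0.51, adjusted p = 0.124 and 0.427).

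Cnn1 stood at 3.57, 4.40 and 3.51 in controls, 3.98, 4.27 and 3.69 at 4 hr and 3.77, 3.37 and 2.40 at 24 hr. Myl9 stood at 5.93, 5.98 and 5.41, at 5.37, 5.99 and 5.47, and at 5.27, 4.78 and 4.48. For Cnn1 both groups overlapped the controls, and for Myl9 only the 24 hr arrays lay below them, with a change of −0.93 whose interval ran from −1.56 to −0.30 (adjusted p = 0.115). Tpm1 stood at 4.78, 5.13 and 5.20, at 5.23, 5.07 and 5.13, and at 4.66, 4.68 and 4.80, and Tpm2 at 4.40, 4.12 and 4.87, at 3.99, 4.21 and 4.29, and at 4.23, 4.26 and 3.60. Neither was called, though another probe of Tpm1 was higher at 4 hr (0.89, adjusted p = 0.0307).

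From 4 to 24 hr of BPA, 8 of 33 genes fell and 0 rose (3 higher at an unadjusted p under 0.05), beside 3.98% of all genes called, 2.92% lower and 1.06% higher. Among the 8 were Acta2 (−1.23, adjusted p = 0.0215), Tagln (−1.49, adjusted p = 0.0333), Acta1 (−1.49, adjusted p = 0.00663) and Actc1 (−1.17, adjusted p = 0.036, limma). This count was 3 without replicate 2 or 3 of BPA at 4 hr, 5 without replicate 1 of BPA at 4 hr or replicate 2 or 3 of BPA at 24 hr, and 0 with the slide as a fixed block.

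The effect of BPA was also compared between the settings. Its effect when added to KBrO3 changed from 4 to 24 hr for 11 of the 31 genes, 10 toward lower and 1 toward higher, beside 28% of all genes, 15.9% lower and 12.1% higher. Among the 10 were Myh1 and Myog, which entered the test only through co-exposure at 4 hr, so that their part of the count is partly fixed by the filter. For Acta2 the change of the effect was −1.93 (SE 0.08, adjusted p = 2.87e-08, limma). The effect of BPA alone minus its effect when added to KBrO3 was called for 1 of 30 genes at 4 hr, toward lower (8.59% of all genes, 3.28% lower and 5.32% higher), and for 3 at 24 hr, 2 toward lower and 1 toward higher (2.82% of all genes, 1.29% lower and 1.53% higher). At 24 hr it was 1.36 for Acta2 (95% interval 0.94 to 1.79, adjusted p = 0.000905). This test sets arrays of both sets against each other, and the sets differ in their controls and in the version of the image software.

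In the thin filament of striated muscle, the actins fell at 24 hr as Acta2 did. Acta1 is the actin of skeletal muscle and Actc1 that of the heart. Actc1 stood at 0.99, 0.94 and 1.20 in controls, −0.94, −0.88 and −0.80 after KBrO3 at 24 hr and −2.46, −2.49 and −2.45 after co-exposure. The groups were apart, with a fall of 1.92 after KBrO3 and of 3.51 after co-exposure (adjusted p = 1.82e-10 and 6.18e-13, limma). Acta1 stood at −1.19, −1.25 and −0.90 in controls, −2.34, −2.37 and −2.35 after KBrO3 and −4.36, −4.54 and −2.99 after co-exposure, where replicate 3 was higher than the other 2 but still below all KBrO3 arrays. Acta1 fell by 1.24 and by 2.85 (adjusted p = 0.00376 and 4.58e-06).

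Acta1 and Actc1 were also lower after co-exposure than after KBrO3 alone, by −1.61 and −1.59 (adjusted p = 0.00114 and 4.48e-09, limma). Neither was called in any comparison with control at 4 hr. After BPA alone at 24 hr Acta1 stood at −1.68, −1.96 and −2.25 against −1.08, −0.82 and −0.78 in controls, 2.10-fold lower with no overlap (adjusted p = 0.0277), and Actc1 was lower by −0.96 without a call (adjusted p = 0.0746).

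The troponins, which tie calcium to the thin filament, did not move as a block. Of 9 thin filament genes tested in the first set, 2 were higher and 2 lower after KBrO3 at 4 hr, 1 and 2 after co-exposure at 4 hr, 0 and 3 after KBrO3 at 24 hr, and 0 and 4 after co-exposure at 24 hr. Over all genes 44.3%, 54.5%, 33.2% and 39.6% were called in either direction, so the total counts of this group lie near the background or below it. At 24 hr its calls were all toward lower, beside 20.7% and 25.1% of all genes lower, with the actins Acta1 and Actc1 among them both times. Of the 6 genes with controls above background, 1 and 2, 0 and 2, 0 and 2, and 0 and 4 were higher and lower, in the same order. With so few genes nothing is read from these differences. Tnni2 codes for the inhibitory troponin of fast muscle and had a course of its own. It stood at −0.39, −0.44 and −0.36 in controls, −1.28, −1.36 and −1.41 after KBrO3 at 4 hr, −3.13, −2.91 and −3.08 after co-exposure at 4 hr, 0.13, 0.16 and 0.23 after KBrO3 at 24 hr and −1.98, −1.61 and −2.19 after co-exposure at 24 hr. No group overlapped another, and only KBrO3 at 24 hr lay above the controls.

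At 4 hr Tnni2 fell by 0.95 after KBrO3 (adjusted p = 8.33e-06, limma) and by 2.64 after co-exposure (adjusted p = 4.70e-10). At 24 hr it lay 0.57 above control after KBrO3, just under the fold limit, and fell by 1.53 after co-exposure (adjusted p = 1.37e-07). Co-exposure was lower than KBrO3 alone by −1.69 at 4 hr and by −2.10 at 24 hr (adjusted p = 3.75e-07 and 4.13e-08). After BPA alone Tnni2 stood at −3.19, −2.86 and −3.10 at 4 hr and −2.09, −2.26 and −2.67 at 24 hr, against −1.54, −0.95 and −1.30 in controls, so BPA arrays lay below controls at both times. It was 3.45-fold lower at 4 hr (adjusted p = 0.00441) and 2.10-fold lower at 24 hr (adjusted p = 0.0406, limma), the latter a call lost without any 1 of the 9 arrays of the set, with adjusted p of 0.0595 to 0.10.

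Tnni1, the inhibitory troponin of slow muscle, was below background on all control arrays, at −6.12, −5.60 and −6.82, and above it after KBrO3 at 4 hr, at −4.55, −4.48 and −3.62, and after co-exposure at 4 hr, at −4.22, −4.13 and −4.33. KBrO3 arrays were at least 2.46-fold and co-exposure arrays at least 2.44-fold above control, the bound being set by the dimmest signal above background on each control array. Since Tnni1 entered the test only through these 2 groups, no p is given for its rise. Without control replicate 3 the calls were lost (adjusted p of 0.0637 to 0.067), as was that after KBrO3 without its replicate 3, and normexp turned both signs, to −0.63 and −0.67. At 24 hr Tnni1 was above background on 1 of 6 treated arrays of the first set, replicate 1 of KBrO3, at −4.44 against −7.27 and −7.53.

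Of the other troponins, Tnnc1, the calcium sensor of slow and heart muscle, fell at 4 hr by 0.62 after KBrO3 (adjusted p = 4.95e-05, limma) and by 1.19 after co-exposure (adjusted p = 1.09e-07). Tnnc2, that of fast muscle, rose by 0.77 after KBrO3 at 4 hr (adjusted p = 2.89e-06). Tnnt1, the tropomyosin-binding troponin of slow muscle, fell by 0.96 after co-exposure at 24 hr and by 1.54 after BPA alone at 24 hr (adjusted p = 3.29e-06 and 0.00753). Tnnt3 of fast muscle was below background on all KBrO3 arrays at 24 hr and at least 1.10-fold lower than control there (adjusted p = 0.00858). Tnnt2 of heart muscle was not called. Nebl, a nebulin-like protein that binds actin, was not called after BPA at 24 hr on its brightest probe (adjusted p = 0.0602), whereas its other probe was lower (adjusted p = 0.00126), and both probes were below background on all 3 BPA arrays. Neb, the nebulin of skeletal muscle, was not called.

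In the thick filament, Myh2 and Myh8 code for myosin heavy chains of fast adult fibers and of perinatal muscle. Myh2 stood at −2.08, −2.11 and −2.07 in controls and close to that at 4 hr, at −2.44, −2.39 and −2.29 after KBrO3 and −2.49, −2.73 and −2.81 after co-exposure. At 24 hr it was below background on all 6 arrays, at −7.17, −7.53 and −7.07 after KBrO3 and −7.55, −7.32 and −7.09 after co-exposure. The 24 hr arrays lay far below all others. Against control, Myh2 was lower by at least 11.4-fold after KBrO3 and by at least 9.02-fold after co-exposure (adjusted p = 1.54e-11 and 7.40e-12, limma), and it fell by 0.59 after co-exposure at 4 hr (adjusted p = 0.00135), a change at the fold limit that missed it without control replicate 3 or replicate 2 or 3 of co-exposure (−0.52 to −0.58).

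Myh8 stood at −2.58, −2.62 and −2.50 in controls, −4.20, −5.28 and −5.77 after KBrO3 at 24 hr and −7.21, −7.21 and −6.28 after co-exposure at 24 hr. It was above background on 2 of the 3 KBrO3 arrays and on none after co-exposure. The measured level of Myh8 was lower than control by −2.51 after KBrO3 (adjusted p = 2.82e-05, limma), and as not all arrays were above background, no fold is read from this value. Co-exposure put Myh8 at least 6.46-fold below control (adjusted p = 1.75e-07) and at least 1.13-fold below KBrO3 alone (adjusted p = 0.000763). The last call was lost under normexp, with a change of −0.26. At 4 hr Myh8 stood at −2.80, −2.88 and −2.76 after KBrO3 and at −3.34, −3.18 and −3.35 after co-exposure, without a call.

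Both genes were lower after BPA alone at 24 hr as well. Myh2 stood at −3.57, −3.04 and −3.02 in controls, −3.67, −3.53 and −4.00 at 4 hr and −5.51, −5.98 and −5.13 at 24 hr. Myh8 stood at −4.37, −3.63 and −3.34, at −4.81, −4.23 and −4.77, and at −6.67, −6.60 and −6.82. At 24 hr the BPA arrays lay below all controls, by 5.03-fold for Myh2 and 7.57-fold for Myh8 (adjusted p = 0.00448 and 0.00315, limma), and both calls were lost with the slide as a fixed block (−2.71 and −3.15, adjusted p = 0.0676 for each) and under normexp (−1.64 and −1.69). On the 2 slides that held 1 BPA array and 1 control, the difference was −2.47 and −2.95 for Myh2 and −3.04 and −3.26 for Myh8. Since both genes are neighbors in a cluster of near-alike myosin genes with Myh1, which has a probe of its own that was lower likewise at 24 hr after KBrO3, co-exposure and BPA alone and below background on all arrays of these groups, their probes may share signal.

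The brightest probe of Myh1, another fast fiber myosin, did not fall. It was below background on all control arrays, at −5.58, −5.89 and −5.47, and on all KBrO3 arrays at 4 hr, at −5.51, −5.83 and −5.29, but above it after co-exposure at 4 hr, at −3.54, −3.64 and −3.72. Co-exposure was thus apart from both, at least 3.46-fold above control and at least 2.94-fold above KBrO3 alone, with a sign that normexp turned against control (−0.52). Only through the co-exposure group at 4 hr did this probe enter the test, so no p is given for its rise. At 24 hr it stood at −4.11, −5.48 and −5.61 after KBrO3 and −5.59, −5.62 and −5.39 after co-exposure, uncalled. In the second set it lay between −4.73 and −4.07 in controls and between −5.03 and −4.32 after BPA. The probes of Myh1 thus disagreed, and which of them reports the gene was not tested.

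Myh7 codes for the slow and cardiac β-myosin heavy chain. It was below background in controls, at −6.10, −6.58 and −6.66, and after KBrO3 at 4 hr, at −5.06, −5.08 and −5.17, so that no fold can be given between these groups although all KBrO3 arrays lay above the controls. Above background on all 3 arrays after KBrO3 at 24 hr, at −4.60, −4.97 and −4.85, it was at least 1.63-fold higher than control, but it entered the test through this group alone, so no p is given, and normexp turned the sign (−1.45). After co-exposure it stood at −5.36, −5.90 and −4.77 at 4 hr, with 1 array above background, and at −5.69, −5.89 and −5.91 at 24 hr, with none. In the second set it was above background on all 9 arrays, at −5.36, −5.01 and −6.00 in controls, −2.84, −4.73 and −4.74 at 4 hr and −4.19, −4.28 and −4.27 at 24 hr of BPA, with BPA arrays above the controls and no call (1.35 and 1.21).

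Of the other thick filament genes, Myl4, a light chain of atrial and embryonic muscle, rose at 4 hr by 0.90 after KBrO3 (adjusted p = 6.27e-06, limma) and by 0.86 after co-exposure (adjusted p = 8.48e-06), and at 24 hr fell by 0.61 after co-exposure (adjusted p = 0.000225). Ttn, the giant spring protein titin, was lower at 24 hr by −0.97 after KBrO3 (adjusted p = 0.00196) and by −0.86 after co-exposure (adjusted p = 0.00397), with 1 and 2 of the 3 arrays above background, so that no fold is read from these values. Mylpf, a light chain of fast muscle, was above background on all 24 arrays and was called in none of the comparisons with control. Myh3, the embryonic heavy chain, was below background on every array on its brightest probe, while its other probe was above background on the 3 co-exposure arrays at 4 hr and on none of the controls. In all, 2 of 7 thick filament genes were higher and 0 lower after KBrO3 at 4 hr, 3 and 1 after co-exposure at 4 hr, 1 and 3 after KBrO3 at 24 hr, and 1 and 4 after co-exposure at 24 hr. Of the 5 with controls above background, 1 and 0, 1 and 1, 0 and 3, and 0 and 4 were higher and lower, in the same order. Over all genes 44.3%, 54.5%, 33.2% and 39.6% were called, and with 7 genes nothing is read from the difference.

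Ryr1 codes for the calcium release channel of skeletal muscle and was the gene of its group tested in the first set. It stood at −3.96, −3.77 and −3.03 in controls, −2.34, −2.50 and −2.17 after KBrO3 at 4 hr and −1.92, −1.65 and −1.94 after co-exposure at 4 hr. The 4 hr arrays lay above all controls, by 1.25 and 1.75 (adjusted p = 0.00513 and 0.000442, limma). Under normexp these values were −0.10 and 0.29, so the rise after KBrO3 changed its sign. At 24 hr Ryr1 overlapped the controls, at −2.43, −3.53 and −3.94 after KBrO3 and −3.77, −3.76 and −3.30 after co-exposure, and in the second set it was not called. Ckm, the muscle creatine kinase, was tested in the second set only and not called.

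The myogenic factors are DNA-binding proteins that commit cells to skeletal muscle, and all 3 were dim in these fibroblasts. Myf6 was above background on all controls, at −5.19, −4.95 and −4.01. After KBrO3 at 4 hr it stood at −2.18, −2.41 and −2.13 and after co-exposure at 4 hr at −3.29, −3.16 and −3.91, above all controls in both. Myf6 was 5.58-fold higher after KBrO3 and 2.39-fold higher after co-exposure (adjusted p = 0.000108 and 0.0118, limma), with co-exposure 2.33-fold below KBrO3 alone (adjusted p = 0.0202). Under normexp these rises were 0.22 and −0.50, the latter with the sign turned. The call after co-exposure was lost without control replicate 1 (1.02, adjusted p = 0.052), and that of co-exposure against KBrO3 without replicate 1 or 3 of KBrO3 or replicate 3 of co-exposure (−0.99 to −1.19). With the slide as a random block both of these calls were lost (0.95 and −1.04, adjusted p = 0.108 and 0.137).

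At 24 hr Myf6 stood at −5.25, −6.27 and −6.01 after KBrO3 and −5.99, −6.32 and −4.95 after co-exposure, with 1 array above background in each group. Its measured level was lower than control by −1.13 and −1.04 (adjusted p = 0.025 and 0.0347, limma), with the co-exposure arrays overlapping the controls, and as 2 of 3 arrays in each group were not above background, no fold is read from these values. Both calls were lost without control replicate 3, without replicate 2 or 3 of KBrO3 and without replicate 1 or 2 of co-exposure, with changes of −1.04 to −0.68. From 4 to 24 hr after KBrO3 it was lower (adjusted p = 3.98e-06). In the second set Myf6 stood at −4.82, −4.37 and −4.89 in controls, −5.55, −5.38 and −5.16 after BPA at 4 hr and −4.22, −5.13 and −4.00 at 24 hr. The 4 hr arrays lay below the controls and the 24 hr arrays overlapped them, and neither difference was called (−0.67 and 0.25).

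Myog, myogenin, was below background on the controls, at −6.46, −6.69 and −6.81, and after KBrO3 at 4 hr, at −6.21, −6.42 and −6.18. After co-exposure at 4 hr it was above background on all 3 arrays, at −5.07, −5.17 and −5.15. It was at least 1.30-fold above control and at least 1.04-fold above KBrO3 alone. Myog entered the test only through this group, so no p is given for its rise. Normexp turned the sign against control (−0.95), and the difference from KBrO3 alone was not called without any 1 of the 6 arrays compared (adjusted p of 0.054 to 0.0786).

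At 24 hr Myog stood at −5.35, −6.61 and −7.41 after KBrO3 and −6.84, −7.26 and −6.24 after co-exposure, without a call, and only the first of these arrays was above background. In the second set it stood at −4.91, −5.64 and −4.70 in controls, −5.53, −5.68 and −5.17 after BPA at 4 hr and −5.28, −5.64 and −5.82 at 24 hr. The groups of the second set overlapped (−0.37 and −0.50, uncalled).

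Myod1, the factor that can turn fibroblasts into muscle cells, stood at −5.18, −5.47 and −5.26 in controls with 1 array above background, at −4.82, −4.79 and −4.83 after KBrO3 at 4 hr and at −4.34, −4.28 and −4.34 after co-exposure at 4 hr. Its measured level was above all controls after co-exposure, by 0.98. It entered the test only through the 4 hr groups, so no p is given for this rise and no fold is read from it. The rise was not called without control replicate 2 or 3 or any 1 of the co-exposure arrays (adjusted p of 0.0548 to 0.0785, limma). Normexp turned its sign (−0.80). At 24 hr it stood at −5.03, −5.95 and −6.13 after KBrO3 and −6.78, −7.09 and −5.39 after co-exposure. After co-exposure its measured level was lower by −1.12 with overlap (adjusted p = 0.0181), with 1 of 3 arrays above background in both groups so that no fold is read from it, a call lost without control replicate 1 or co-exposure replicate 1 or 2 (−1.05 to −0.78). In the second set it stood at −4.60, −4.37 and −4.56 in controls, −4.75, −4.83 and −4.54 after BPA at 4 hr and −4.21, −4.50 and −4.01 at 24 hr, overlapping at both times and uncalled.

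Of these 3 factors, 1 was higher after KBrO3 at 4 hr and 3 after co-exposure at 4 hr, and 1 was lower after KBrO3 at 24 hr and 2 after co-exposure at 24 hr, beside 21.3% and 29% of all genes higher at 4 hr and 20.7% and 25.1% lower at 24 hr. Myog and Myod1 entered the test only through 4 hr groups, and nothing is read from the 4 hr counts. The 4 hr rises above lie near background. Replicate 1 of KBrO3 at 24 hr had 68.1% of probes above background and lay on another slide than its 2 mates. That slide also held the 3 co-exposure arrays at 4 hr. This array was the highest of its group for Tnni1, Myog, Myh1, Myh8, Ryr1, Myod1 and Myf6. For all of these but Myf6 it lay nearer to the co-exposure arrays at 4 hr than to its mates. Its level of Myh1 was −4.11, against −3.72 to −3.54 on those arrays and −5.48 and −5.61 on its mates. The part of the slide in the 4 hr rises was not tested. Without this array, 19 genes of the list were called at 24 hr of KBrO3 in place of 16.

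**Figure D3:**
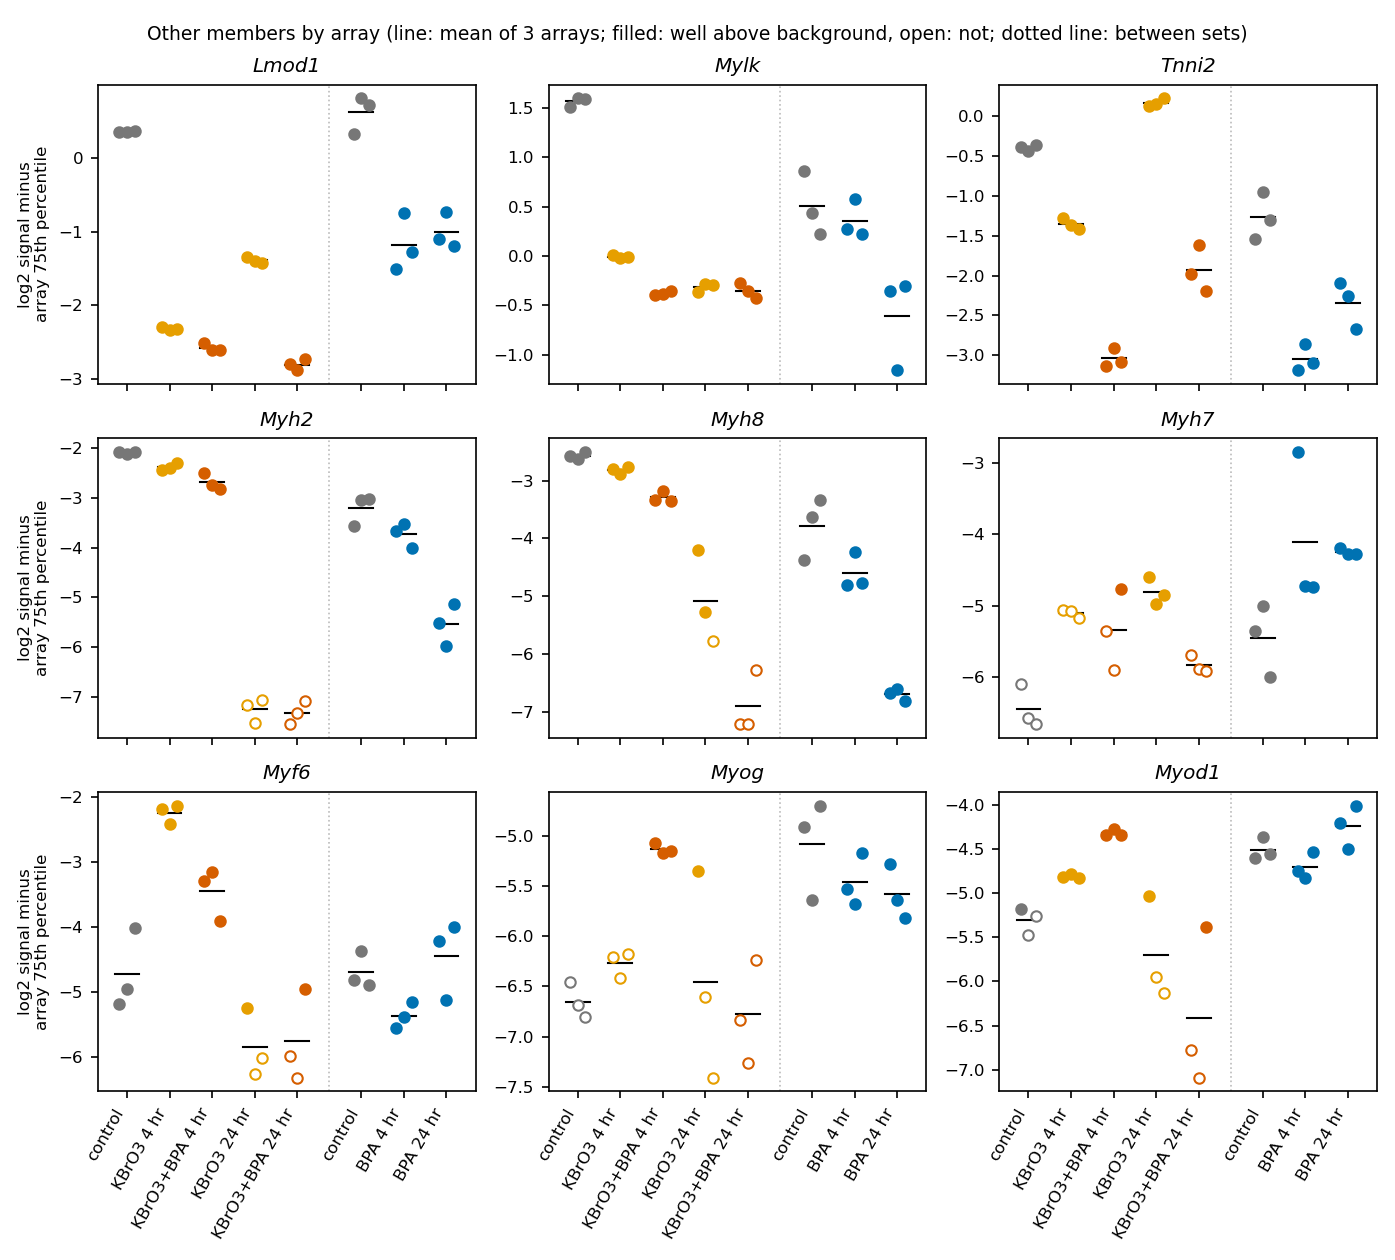
Level of 9 other genes on each of the 24 arrays (vertical axis, log2 signal minus the array's 75th percentile) by group (horizontal axis), with filled points well above background and open points not. In the first set Lmod1 and Mylk are low from 4 hr on, Myh2 falls below background in the first set at 24 hr, and Myf6 is highest after KBrO3 at 4 hr, between −2.41 and −2.13.

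**Figure D4:**
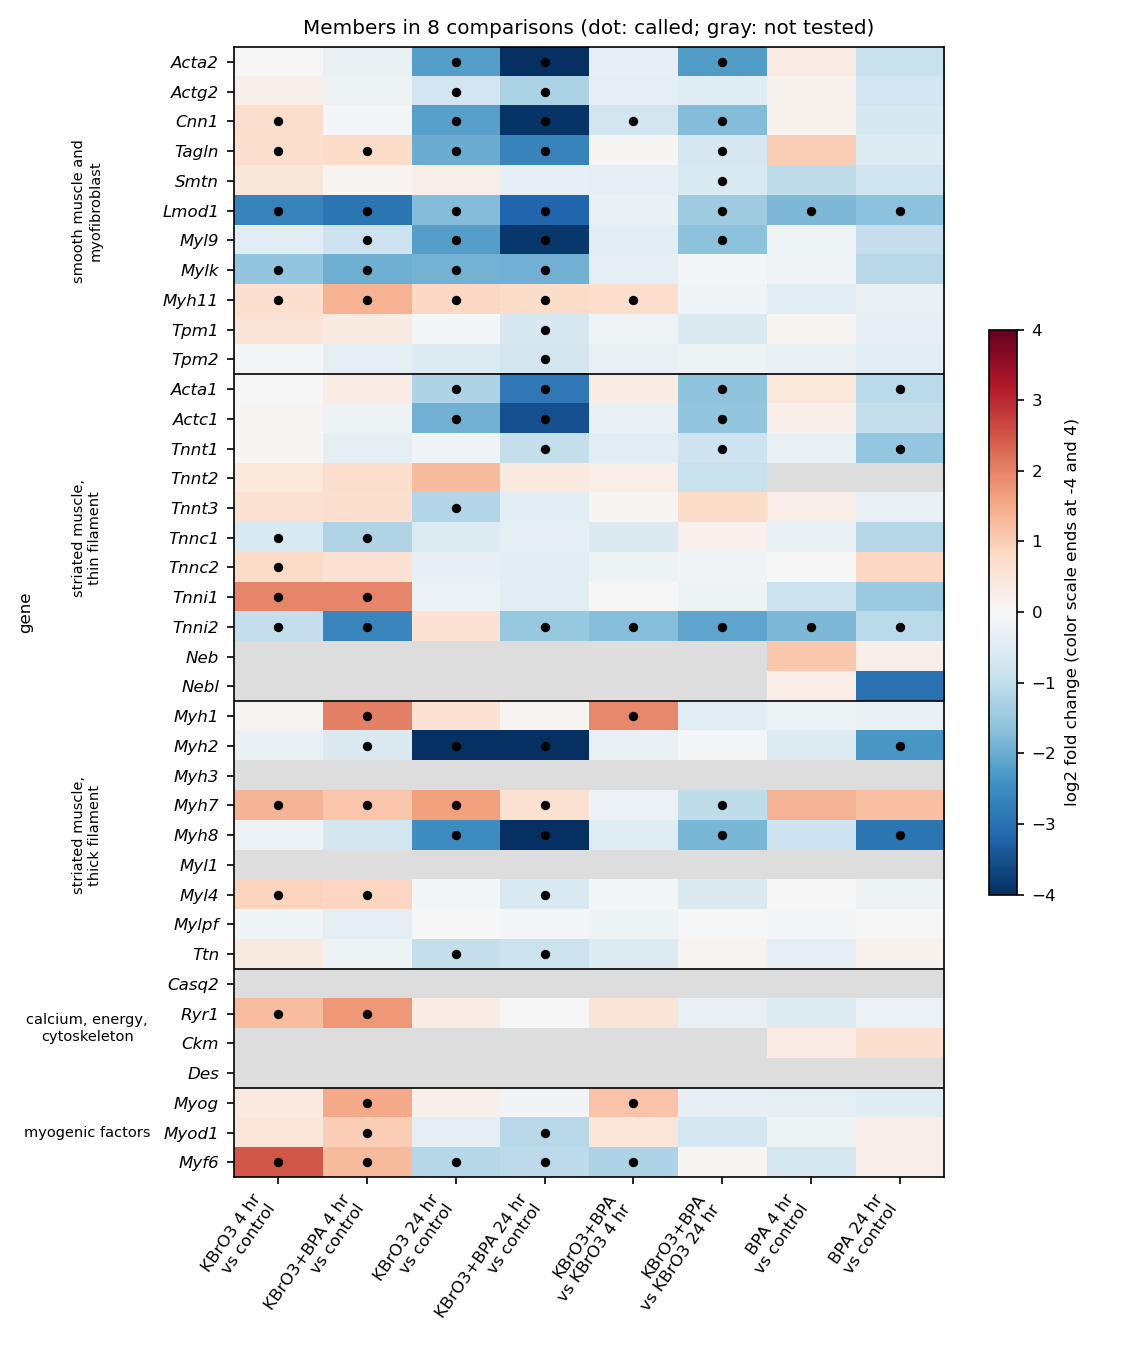
Log2 change of each of the 38 genes (rows, by group) in 8 comparisons (columns), with red for higher, blue for lower, gray for not tested and a dot for a call. At 24 hr most genes of the smooth muscle group are blue, in the first set, with Lmod1 and Mylk blue at 4 hr too. The red of Myh7 and Myh11 against the control of the first set turned its sign under normexp background correction.

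The promoters of the list were searched because many contractile genes share a binding element of serum response factor, the CArG box. In the 250 bases before the start sites of RefSeq (build GRCm38.p6) the CArG box, searched on both strands, was found for 1.62% of 27025 genes. Of 30 genes of the list with a promoter sequence, 4 held it, namely Acta1, Actc1, Myl9 and Nebl. The E-box bound by myogenic factors (CANNTG) was found in 22 of 30, but also for 69.3% of all genes. The stretches around the CArG box are shown because 3 of the 4 genes were among those that fell at 24 hr. They lie at chr8:123894799-123894888 (minus strand, Acta1), chr2:114052876-114052962 (minus strand, Actc1), chr2:156775263-156775352 (plus strand, Myl9) and chr2:17462969-17463058 (minus strand, Nebl), with the CArG box in capitals.
Acta1 promoter: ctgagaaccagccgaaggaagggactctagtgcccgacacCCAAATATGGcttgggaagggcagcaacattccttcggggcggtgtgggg
Actc1 promoter: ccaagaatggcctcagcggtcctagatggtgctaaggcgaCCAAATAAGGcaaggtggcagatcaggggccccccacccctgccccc
Myl9 promoter: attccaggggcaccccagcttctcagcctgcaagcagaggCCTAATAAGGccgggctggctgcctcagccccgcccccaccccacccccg
Nebl promoter: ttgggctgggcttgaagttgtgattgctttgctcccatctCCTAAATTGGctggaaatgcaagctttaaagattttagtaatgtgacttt
The box began 73 bases before the start in Acta1, 47 in Actc1, 161 in Myl9 and 162 in Nebl. Acta2, Cnn1 and Lmod1, which fell as far, had no match to these letters in their windows, and sequence outside these windows was not searched. Tagln and Actg2 were among the genes with no promoter sequence here. A match is a run of letters and not a measured binding site.

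Genes that regulate actin and serum response factor were listed apart from the 38. Of 20 tested, none was higher and 8 lower after KBrO3 at 24 hr, and 1 was higher and 10 lower after co-exposure at 24 hr, with a median of −0.60, beside 20.7% of all genes lower after KBrO3 and 25.1% after co-exposure. The largest falls after co-exposure were those of Vcl, vinculin of cell adhesions (−1.87, adjusted p = 2.97e-10, limma), Cald1, caldesmon (−1.44), Tgfb1i1, an adhesion adaptor (−1.27), and Tpm4, another tropomyosin (−1.26). Against KBrO3 alone at 24 hr 6 were lower and none higher, with Vcl at −1.22 and Mrtfb, a myocardin-related factor, at −1.09, beside 8.45% of all genes lower and 5.76% higher. At 4 hr 4 were higher and 2 lower after KBrO3, and 2 higher and 3 lower after co-exposure, beside 44.3% and 54.5% of all genes called, so a smaller share of this list than of all genes was called at 4 hr.

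**Figure D5:**
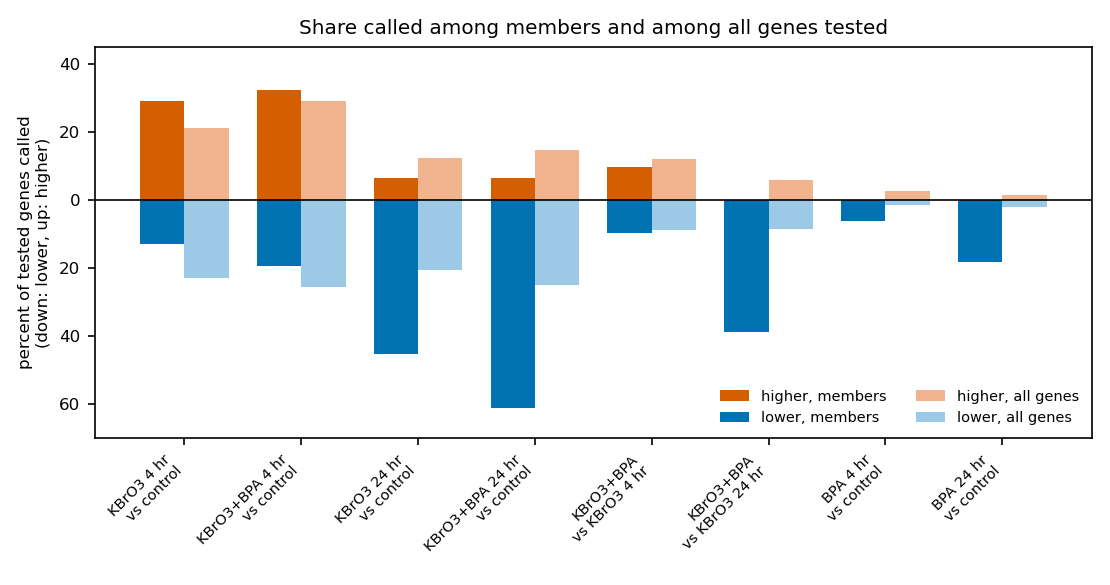
Percent of tested genes called higher (up) and lower (down) in 8 comparisons (horizontal axis) for the genes of the list (dark orange and blue bars) and for all genes tested (pale bars). At 24 hr the lower share of the list is above that of all genes, for example 19 of 31 after co-exposure beside 25.1% of all genes.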

How the data were processed

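Total RNA from Ku70-/- cells had been labeled with Cy3 and hybridized to Agilent whole mouse genome arrays, 1 sample per array. The authors deposited Feature Extraction output, and its processed signal is an intensity, background-subtracted by the scanner software (version 9.5.3.1 for the first set, 12.0.0.7 for the second). The deposited series table held the same intensity values. The depth of an array is not a read depth, and the 3 arrays per group limit the precision.

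Control spots and outlier spots were left out, 43379 spots were averaged to 41174 probes, and log2 of the processed signal minus the 75th percentile of the array was used. Probes entered a test where all 3 arrays of some group were well above background (27310 probes of the first set, 31809 of the second). Each set was fitted by itself with limma 3.58.1 in R 4.3.3, all groups together, and the effect of BPA alone against that of BPA added to KBrO3 came from a fit of both sets with array weights. Calls took a Benjamini-Hochberg adjusted p below 0.05 and a fold beyond 1.5, and 95% intervals are those of limma. The probe brightest on average over the 24 arrays stands for a gene. The fit was tested on simulated data with 200 changed probes. Where a group was below background on all arrays, folds are bounds.

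Levels on every array are given for Acta2, Tagln, Cnn1, Myl9, Tpm1, Tpm2, Des, Myog, Myod1 and Myf6, and, in each of 8 comparisons, for the called genes with the 3 largest rises and the 3 largest falls, and other values were chosen after they were seen. From each further gene list, at most 4 called genes with the largest change are named. The members and lists were chosen with earlier results of these data known. Alternatives were normexp (offset 50), quantile and median scaling, other filters and probes, Bonferroni p below 0.01, slide and replicate blocks, other sets of arrays in the fit, and leaving out each array. Setting aside 3 arrays under normexp was added after seeing the data. The second set has no mean signal column, so normexp used its median signal. Promoters are those of RefSeq, build GRCm38.p6.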

Additional observations from a re-analysis of the deposited data

Results flagged for a closer look

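The effect of BPA added to KBrO3 changed between 4 and 24 hr for 11 genes, by a limma interaction test. The change was toward lower for Myh1 (−2.37), Acta2 (−1.93, adjusted p = 2.87e-08), Acta1 (−1.90, 0.00348), Myog (−1.46) and Myh8 (−1.34, 0.0299). It was also toward lower for Actc1 (−1.28, adjusted p = 1.07e-06), Myl9 (−1.22, 2.40e-07), Lmod1 (−1.16, 1.91e-07), Cnn1 (−1.01, 2.59e-06) and Tagln (−0.71, 0.00105). Tnnc1 went toward higher (0.75, adjusted p = 0.000546). Myh1 and Myog were below background on all arrays after KBrO3 at 4 hr, and Myh1, Myog and Myh8 on all arrays after co-exposure at 24 hr, so for these 3 genes the values are differences of measured levels and no fold can be read from them. Myh1 and Myog entered the test only through co-exposure at 4 hr, a group that this difference uses. Their change toward lower is thus partly fixed by the filter, and no p is given for it.

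The effect of BPA alone minus its effect when added to KBrO3 differed from 0 for 4 values in limma. At 4 hr it was −1.54 for Lmod1 (adjusted p = 7.49e-05). At 24 hr it was −2.27 for Myh2 (adjusted p = 0.00242), 1.36 for Acta2 (adjusted p = 0.000905) and −1.08 for Mylk (adjusted p = 0.00992). Myh2 was already below background after KBrO3 alone at 24 hr, so no further fall by added BPA could be measured there. Set and treatment cannot be told apart in these 4 values except through each set's own control.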

How the results depend on the processing

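Of 70 named calls followed through the alternatives, 28 kept sign and call in all that were run, among them both falls against control at 24 hr of Acta2 (−2.25 to −1.83 for KBrO3 and −4.49 to −4.02 for co-exposure), Cnn1, Tagln, Myl9, Mylk, Lmod1 and Myh2. The rises of dim genes depended on the background correction. With normexp the sign turned after KBrO3 at 4 hr for Myh11 (−0.82), Myh7 (−0.97), Ryr1 (−0.10) and Tnni1 (−0.63), and after co-exposure at 4 hr for Myf6 (−0.50), Myh1 (−0.52), Myh11 (−0.45), Myh7 (−1.02), Myod1 (−0.80), Myog (−0.95) and Tnni1 (−0.67). It turned at 24 hr for Myh11 (−1.06 after KBrO3 and −1.03 after co-exposure) and Myh7 (−1.45 and −1.56). Normexp moved the median of all genes by −0.45 to −0.52 against the control of the first set, and 3 arrays (control replicate 2 of the first set, control replicate 1 of the second and BPA at 4 hr replicate 3) had a 10th percentile of −0.66, −1.36 and −1.08 against −4.56 to −2.75 on the others. With these set aside, signs were still turned for Myh11 (−0.15 after KBrO3 at 4 hr, −0.39 at 24 hr and −0.35 after co-exposure at 24 hr), for Myh7 (−0.20 and −0.68 after KBrO3 and −0.25 and −0.79 after co-exposure, at 4 and 24 hr), for Myod1 (−0.058) and for Myog (−0.16) after co-exposure at 4 hr. Median scaling moved the median of all genes by up to 0.32 and quantile normalization by up to 0.14.

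With the slide as a random block (correlation 0.634 in the first set) 15 of these calls were lost, those of Myf6 after KBrO3 at 24 hr, after co-exposure at both times and against KBrO3 at 4 hr, of Myh11 at both times after KBrO3, after co-exposure at 24 hr and against KBrO3 at 4 hr, of Myh7 and Myod1 after co-exposure at both times, of Myog after co-exposure at 4 hr against control and KBrO3, and of Tnni1 after co-exposure at 4 hr.

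Counts of genes called moved as follows. A Bonferroni p below 0.01 gave, for KBrO3 and for co-exposure, 3 and 5 at 4 hr and 8 and 13 at 24 hr. It gave 2 and 6 for co-exposure against KBrO3 at 4 and 24 hr, and 10 and 11 for 24 against 4 hr with KBrO3 and co-exposure. It gave 5 for the change of the added effect and 0 in all 5 comparisons with BPA alone. Normexp gave 8 for KBrO3 at 4 hr, 2 for co-exposure against KBrO3 at 4 hr, 14 for co-exposure at 24 against 4 hr, 6 for the change of the added effect, and 0 for BPA at 4 hr, at 24 hr, at 24 against 4 hr and for BPA alone minus added at 24 hr. With the 3 arrays set aside it gave 7 for KBrO3 and 9 for co-exposure at 4 hr, 2 for BPA at 24 hr and 1 for BPA at 24 against 4 hr. Testing only probes above background on every array gave 10 for KBrO3 at 24 hr, 9 for co-exposure at 4 hr, 3 for co-exposure against KBrO3 at 4 hr, and 12 and 14 for 24 against 4 hr after KBrO3 and co-exposure, with fewer genes tested. The slide as a fixed block gave 0 for BPA at 4 hr, at 24 hr and at 24 against 4 hr, and 5 for BPA alone minus added at 24 hr, and as a random block it gave 4 and 11 for BPA alone minus added at 4 and 24 hr. All 24 arrays in 1 fit gave 5 for BPA at 4 hr, 15 at 24 hr, 13 at 24 against 4 hr, and 7 and 6 for BPA alone minus added at 4 and 24 hr. The probe with the lowest p gave 4 for BPA at 4 hr, and 4 and 5 for BPA alone minus added at 4 and 24 hr. For BPA at 24 against 4 hr the count was 5 with no filter on dim probes and 5 with median scaling. For BPA alone minus added at 4 hr it was 2 with median scaling, 2 with quantile normalization and 6 with only the groups compared. The causes were not tested.

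Same-numbered arrays did not vary together (mean correlation −0.029 over 30 pairs of groups in the first set and 0.0020 over 9 in the second), so the numbers were not taken to pair them. With the replicate block the count was 5 for BPA at 24 against 4 hr and 2 for BPA alone minus added at 4 hr, and no other count moved by over 1.5 times.

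Leaving out 1 array gave 11 to 14 for KBrO3 at 4 hr, 14 to 19 at 24 hr, 14 to 17 for co-exposure at 4 hr and 18 to 21 at 24 hr. It gave 3 to 6 and 11 to 15 for co-exposure against KBrO3 at 4 and 24 hr, 17 to 20 and 22 to 24 for 24 against 4 hr after KBrO3 and co-exposure, and 9 to 14 for the change of the added effect. It gave 2 to 3 for BPA at 4 hr, 4 to 5 at 24 hr, 3 to 8 at 24 against 4 hr, and 1 to 3 and 2 to 4 for BPA alone minus added at 4 and 24 hr. The count for BPA alone minus added at 4 hr was 3 without BPA at 24 hr replicate 3, and 2 without BPA at 24 hr replicate 2, KBrO3 at 24 hr replicate 1, co-exposure at 24 hr replicate 3, co-exposure at 4 hr replicate 2 or 3, control replicate 3 of the first set or control replicate 2 of the second. The call of Myh7 after co-exposure at 24 hr was lost without any of its 3 arrays or control replicate 2 or 3 (0.51 to 0.66).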

Other observations

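Other genes of the sarcomere and of the calcium triad, kept apart from the 38, were mixed. Of 12 tested in the first set, 3 were higher and 2 lower after KBrO3 at 4 hr, 7 and 2 after co-exposure at 4 hr, 1 and 4 after KBrO3 at 24 hr, and 0 and 4 after co-exposure at 24 hr, in limma, beside 44.3%, 54.5%, 33.2% and 39.6% of all genes called. Of the 12, 5 entered the test only through co-exposure at 4 hr, Ldb3, Mb and Cacna1s among them, and of the other 7 genes 2 were higher and 2 lower there. Cav3, caveolin of muscle, had a log2 change of −3.13 after co-exposure at 4 hr and −3.41 at 24 hr. Ldb3, a Z-disk protein, and Mb, myoglobin, were below background in controls and at least 4.38-fold and 1.49-fold higher after co-exposure at 4 hr, and Cacna1s, the calcium channel that senses voltage in skeletal muscle, was higher by 1.47. Mybpc2 and Mybph, which bind myosin, were below background after co-exposure at 24 hr, at least 1.44-fold and 1.40-fold lower than control, and Tnni3, the inhibitory troponin of the heart, fell by 0.72. Whether the dim rises depend on the background correction was not tested for these genes. Replicate 1 of KBrO3 at 24 hr lay on the slide of the co-exposure arrays at 4 hr. There Ldb3 stood at −3.69 and Cacna1s at −3.80, against −5.44 and −5.50, and −4.79 and −5.27, on its mates. Mb stood at −5.74 on that array, against −5.72 and −6.65. The part of the slide in these rises was not tested.

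Of 11 other genes of myogenic regulation, 4 were higher and 3 lower after co-exposure at 4 hr, and 1 was higher and 8 lower at 24 hr, with a median of −0.75, beside 54.5% of all genes called at 4 hr and 39.6% at 24 hr, 25.1% lower. After KBrO3 alone 3 were higher and 1 lower at 4 hr, and 1 was higher and 3 lower at 24 hr, beside 44.3% and 33.2% of all genes called. Cdh15, a cadherin of muscle precursors, and Id1, an inhibitor of myogenic factors, were higher after co-exposure at 4 hr (2.57 and 1.54), and Mef2c and Six4, transcription factors of muscle, were lower (−1.46 and −0.98). After KBrO3 alone at 4 hr, Cdh15 and Id1 also lay above all controls and Mef2c below them, while Six4 overlapped them. After co-exposure at 24 hr Id2 (−1.26), Mef2c (−1.23), Mef2a (−1.13) and Twist1 (−1.02) were lower.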
